A study of Mus musculus with 2 samples.

Results

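Chromosome 1 carried 799 of the 5639 Pwp1 peaks in a list from mouse embryonic stem cells, or 14.2% of the list. The members were all lines of the authors' peak list that lay on chromosome 1. The chromosome was chosen because earlier work on the same list had shown its high density and wide peaks, so both are given here as descriptions, with no test. Chromatin immunoprecipitation with sequencing (ChIP-seq), which maps where a protein sits on DNA, had been carried out with an anti-Pwp1 antibody on E14.1 cells. This mouse embryonic stem cell line was grown on gelatin, in medium that held LIF at 1000 units per ml beside 15% serum. The series holds 1 ChIP library and 1 input DNA library made without antibody, and both came from cells under the same culture conditions. Only the peak list of the ChIP library was analysed here. With 1 library there was no replicate, and the intervals below are 95% intervals that cover counting error only.

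Pwp1 is a nuclear protein with WD repeats, a fold that typically serves as a platform on which other proteins assemble. It has been linked to the transcription of ribosomal RNA genes and to the chromatin of these genes. LIF is a cytokine under which such cells stay undifferentiated, and it acts through Stat3, which the series title connects with Pwp1. Mouse chromosomes carry their centromere close to one end, and genome coordinates start at that end, so "proximal" below means nearer to the centromere and "distal" nearer to the far telomere.

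The list gives a chromosome, a start and an end for each peak, in the mouse build mm9, and no height, p-value or gene. Its sequencing depth is unknown. The density, width and spacing of the chromosome 1 peaks were therefore set beside those of chromosomes 2, 3, 7, 8, 9, 10, 12, 13, 15, 16, 17, 18 and 19, which together held 2827 peaks. Neither the input library nor the copy number of chromosome 1 in these cells was analysed here, so the part of either in the values below was not tested. The genes and the DNA sequence under the peaks were not analysed here.

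Chromosome 1 had more peaks per length than any of the 13 comparison chromosomes. Its first peak was chr1:3657072-3657238 and its last was chr1:197046236-197046402, both 167 bp wide. Over this span of 193.4 Mb the density was 4.13 peaks per Mb (3.85 to 4.43). Among the comparison chromosomes the median was 1.89 peaks per Mb. Chromosome 3 was lowest, at 1.47, and chromosome 19 highest, at 2.33. Chromosome 1 thus stood at 2.19 times that median (2.04 to 2.35, from the counting error of chromosome 1 alone).

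High density and wide peaks were not confined to chromosome 1 among the autosomes. Chromosome 11, which was not in the comparison set, had 4.96 peaks per Mb, 46.3% of its peaks were wider than 167 bp, and 4.27% of its 1 Mb bins were empty. Chromosome 14, likewise not in the set, had 3.97 peaks per Mb and 44.1% wider peaks. Chromosome 6, also outside it, had 2.55 peaks per Mb and 35.4% wider peaks, both above every comparison chromosome.

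The high density extended over nearly the whole length of the chromosome. In the 18 windows of 10 Mb that lay wholly inside the span, the lowest count was 17 peaks, the median 42.5 and the highest 55, with a mean of 40.8 ± 11.5 (SD over windows). The comparison chromosomes had 136 such windows. These had a lowest count of 2, a median of 16.5 and a highest of 47. Both sets overlapped, but all 18 windows of chromosome 1 lay above the comparison median. The upper quartile of the comparison windows, 26.2 peaks, was exceeded by 16 of the 18, and 7 of the 18 lay above every comparison window. In the other direction, 3 of the 136 comparison windows (2.21%) lay above the chromosome 1 median. Outside the comparison set, windows of chromosome 11 held 29 to 64 peaks, with a median of 48. Those of chromosome 14 held 13 to 71 (median 27) and those of chromosome 6 held 5 to 58 (median 19).

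The 3 fullest windows of chromosome 1 were not next to each other. They lay at 50 to 60 Mb with 55 peaks, and at 130 to 140 Mb and 160 to 170 Mb with 54 peaks each. The 3 emptiest lay at 110 to 120 Mb with 17 peaks, at 140 to 150 Mb with 24 and at 20 to 30 Mb with 28. The fullest window held 3.24 times as many peaks as the emptiest. The corresponding ratio was higher on 12 of the 13 comparison chromosomes, where it reached 16.5 on chromosome 13, and lower on chromosome 19, the shortest of them. Outside the set it was lower on chromosome 11, at 2.21, and higher on chromosomes 4, 5, 6 and 14. Full and empty windows could be neighbours on chromosome 1, since the window with 24 peaks lay between windows with 54 and 53.

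**Figure D1:**
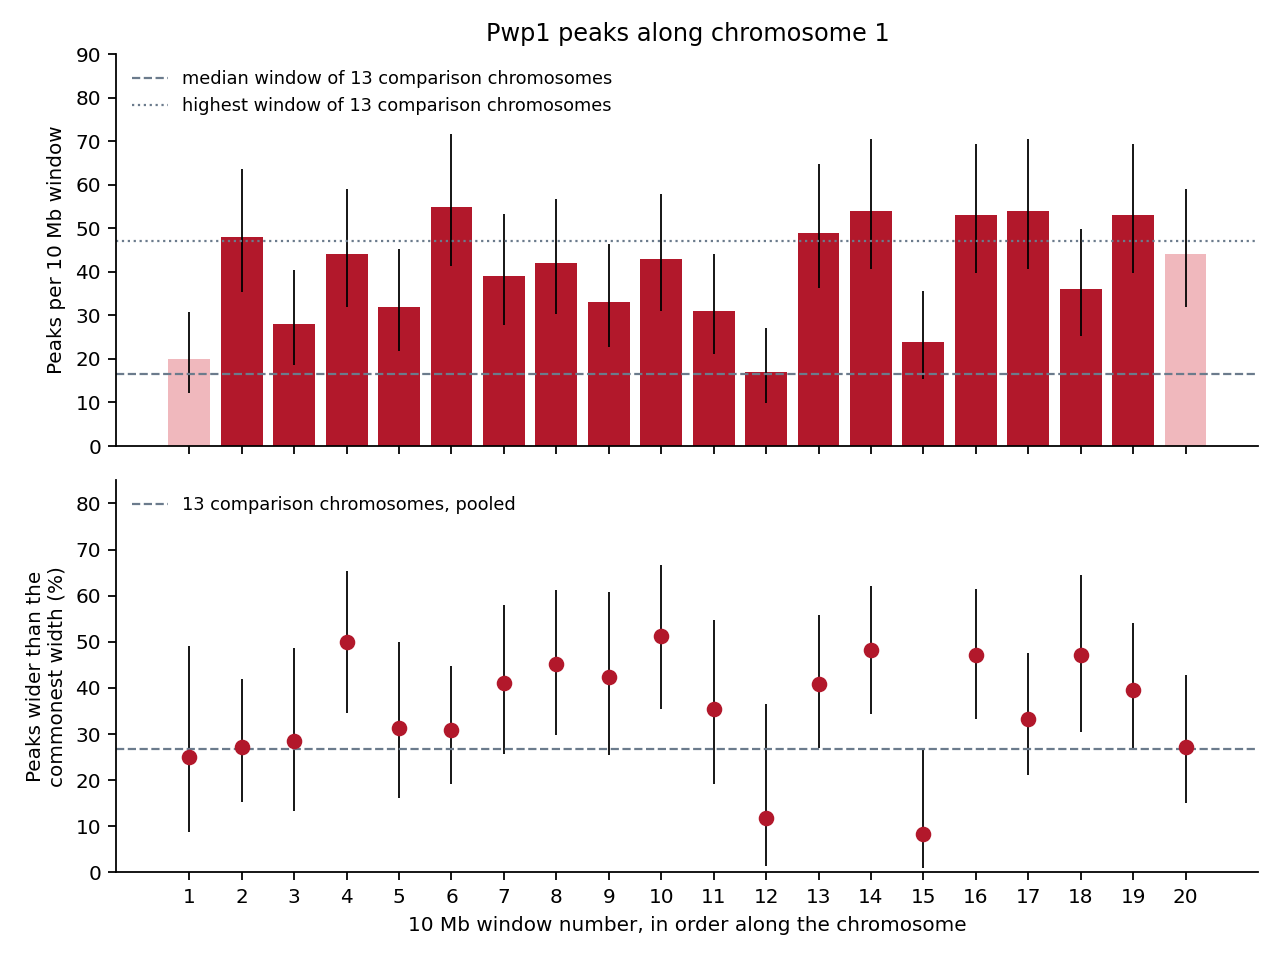
Upper panel: number of Pwp1 peaks in each 10 Mb window of chromosome 1, in order from the centromere end, with exact Poisson 95% intervals; pale bars are the end windows that the peaks do not span in full, and the lines mark the median (16.5) and the highest (47) window of the 13 comparison chromosomes. Lower panel: share of peaks wider than 167 bp in each window with exact binomial 95% intervals; windows 12 and 15 are the lowest, at 11.8% and 8.33%, against 26.7% in the pooled comparison chromosomes (dashed line).

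At a finer scale, few stretches of chromosome 1 lacked a peak. Of its 193 whole bins of 1 Mb, 6 (3.11%, interval 1.15 to 6.64) were empty, against 454 of 1491 (30.4%, 28.1 to 32.9) on the comparison chromosomes. The difference was -27.3 percentage points (-30.3 to -23.2). Single comparison chromosomes ranged from 19.3% empty bins on chromosome 9 to 38.4% on chromosome 3. No 2 empty bins adjoined on chromosome 1, so the longest empty run was 1 bin, while the comparison chromosomes had runs of 3 to 7 bins. The longest run of occupied bins on chromosome 1 covered 48 Mb, from 149 to 197 Mb, its distal end.

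The highest count reached by any bin differed less. The fullest bins of chromosome 1, at 58 to 59 Mb and 65 to 66 Mb, held 10 peaks each, and 9 further bins held 9. The fullest bin of a comparison chromosome held between 7 and 12 peaks, with a median of 9 over the 13. Bins with 5 or more peaks made up 41.5% of chromosome 1 (34.4 to 48.7) and 11.5% of the comparison bins (9.89 to 13.2). Bins with exactly 9 peaks made up 4.66% of chromosome 1 and 0.40% of the comparison bins. Chromosome 1 therefore held many more full bins, although 2 of the 13 comparison chromosomes had a bin fuller than any of its own.

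**Figure D2:**
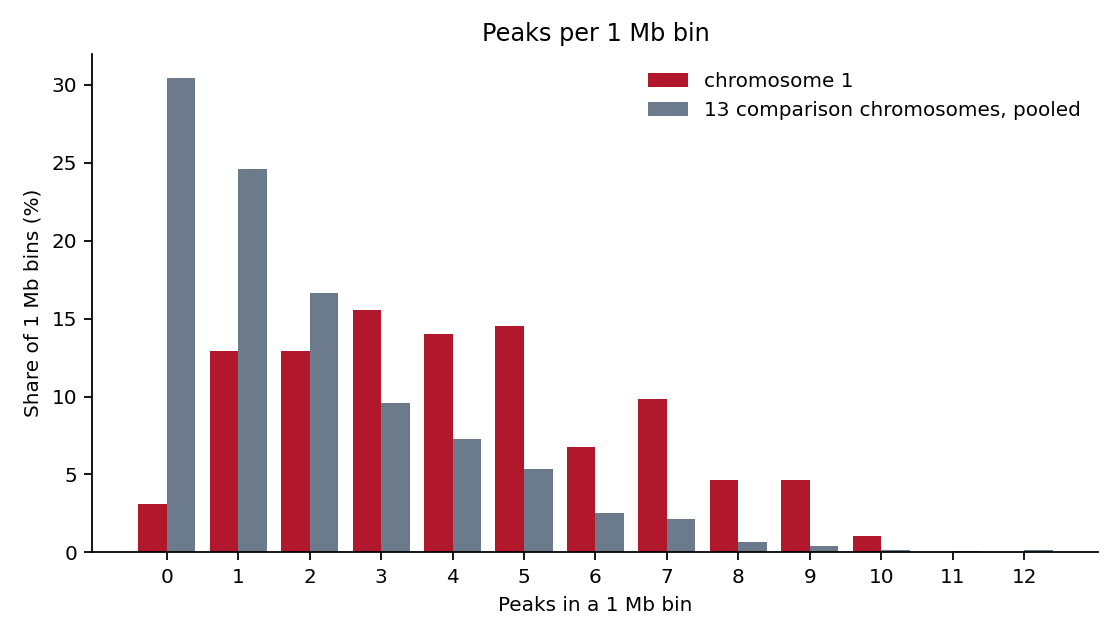
Share of whole 1 Mb bins (vertical axis, %) that held a given number of Pwp1 peaks (horizontal axis), for chromosome 1 (193 bins) and the 13 comparison chromosomes pooled (1491 bins). Empty bins were 3.11% on chromosome 1 and 30.4% elsewhere, while no chromosome 1 bin held more than 10 peaks.

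Relative to their mean, counts along chromosome 1 were also more even. The variance of the 1 Mb counts was 1.44 times their mean, against a median of 2.12 on the comparison chromosomes, where chromosome 13 was the lowest at 1.42 and chromosome 17 the highest at 2.91. Counting alone gives a ratio near 1. Because that ratio grows with the mean, the variance left after subtracting the mean was also divided by the squared mean. This relative unevenness was 0.11 on chromosome 1 and lay between 0.26 on chromosome 13 and 0.88 on chromosome 17 in the comparison set. In 10 Mb windows it was 0.055 on chromosome 1, against 0.11 on chromosome 10, the lowest of the 13, and 0.51 on chromosome 16, the highest. Chromosome 11 was at least as even, at 0.093 in 1 Mb bins and 0.030 in 10 Mb windows. Counts in adjoining 1 Mb bins were weakly related on chromosome 1 (r = 0.26 over 193 bins, a description, since adjoining bins share their region) and on the comparison chromosomes (median r = 0.30).

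The distal part of chromosome 1 was denser than the rest. Earlier work had located a boundary on these same peaks, so the contrast across it describes the list and tests nothing. It lay between the peaks centred at 152.97 and 153.06 Mb. The 565 peaks before it gave 3.78 per Mb (3.48 to 4.11) and the 234 peaks after it 5.31 per Mb (4.65 to 6.04), a ratio of 1.40 (1.20 to 1.64). The last peak before it was chr1:152966776-152966942 and the first after it chr1:153060231-153060397. These peaks were both 167 bp wide, and their centres lay 93.5 kb apart.

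Counts on the 2 sides of the boundary overlapped widely. The 149 whole 1 Mb bins before it held 0 to 10 peaks with a median of 3 and a mean of 3.79 ± 2.39 (SD over bins). The 44 bins after it held 1 to 9 with a median of 5 and a mean of 5.30 ± 2.24. All 6 empty bins lay before the boundary, as did 23 of the 25 bins with 1 peak. The fullest bins did not lie beyond it, and the variance of the distal bins was 0.94 times their mean, against 1.51 before the boundary. The distal part thus held few thinly filled bins, while its fullest bin was no fuller than those before the boundary.

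Before the boundary, each of 5 consecutive stretches was less dense than the distal part, and the stretch from 33 to 63 Mb came nearest to it. The stretch up to 33 Mb had 3.51 peaks per Mb (2.87 to 4.26), that from 33 to 63 Mb 4.50 (3.77 to 5.33) and that from 63 to 93 Mb 3.77 (3.10 to 4.53). The thinnest stretch, from 93 to 123 Mb, had 3.23 (2.62 to 3.94), and the one between it and the boundary 3.90 (3.23 to 4.67). The interval of the stretch from 33 to 63 Mb overlapped that of the distal part, which began at 4.65. That of the stretch from 123 Mb to the boundary did so only at its upper edge. The variance of the 1 Mb counts before the boundary was 1.51 times their mean, above counting alone. These intervals, and that of the ratio across the boundary, can therefore be too narrow. Even the thinnest of these stretches lay above the whole-chromosome density of each comparison chromosome.

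A denser distal end was also seen on several comparison chromosomes. When each was divided at the same fraction of its span as chromosome 1, 77.2%, the ratio of distal to proximal density had a median of 1.13, with chromosome 17 lowest at 0.58 and chromosome 2 highest at 1.66. The ratio of chromosome 1, 1.40, was exceeded by 6 of the 13, although its boundary had been picked for its contrast and theirs had not. The density itself was higher on chromosome 1 on both sides of the division. Its proximal 3.78 peaks per Mb compared with at most 2.47, on chromosome 17, and its distal 5.31 with at most 3.05, on chromosome 2.

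Peaks on chromosome 1 were wider than on every comparison chromosome. The mean width was 178 ± 48.4 bp (SD over 799 peaks), and the comparison means ran from 154 bp on chromosome 15 to 162 bp on chromosome 17. The median was 167 bp, the commonest width of the list, in chromosome 1 as in each of the others, so it hides the difference. The quartiles show it, at 164.5 and 197 bp on chromosome 1, while the comparison chromosomes had lower quartiles of 121 to 129 bp and upper quartiles of 167 to 176 bp.

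On chromosome 1, 300 peaks (37.5%, 34.2 to 41.0) were wider than 167 bp, 295 (36.9%, 33.6 to 40.4) were exactly that wide and 204 (25.5%, 22.5 to 28.7) were narrower. The pooled comparison chromosomes had 26.7%, 29.2% and 44.0% in the same classes. The largest of these 3 differences was in narrower peaks, at -18.5 percentage points (-21.9 to -14.9), followed by wider peaks at 10.8 (7.12 to 14.6) and the commonest width at 7.70 (4.01 to 11.5). Against all other 18 autosomes, which include chromosomes 6, 11 and 14, the excess of wider peaks was 6.38 points. Each class on chromosome 1 lay outside the range of the 13 chromosomes, which held 38.6% to 49.7% narrower peaks.

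The excess of peaks on chromosome 1 depended on their width. Peaks of 101 to 130 bp were about as dense there as elsewhere, at 0.44 per Mb against 0.47 in the pooled comparison, a ratio of 0.94 (0.74 to 1.17). For this class 9 of the 13 chromosomes were denser than chromosome 1. The ratio was 1.74 (1.38 to 2.18) for peaks of 131 to 166 bp, 2.78 (2.42 to 3.18) for those of 167 bp and 2.11 (1.70 to 2.60) for those of 168 to 200 bp. It rose to 3.72 (2.99 to 4.60) at 201 to 250 bp, 5.60 (3.55 to 8.77) at 251 to 300 bp and 10.1 (5.11 to 20.2) above 300 bp. The last class rests on 22 peaks on chromosome 1 and 17 on the 13 others together. With 21 peaks on chromosome 1, the class of up to 100 bp was too small to place, at a ratio of 1.67 (0.99 to 2.69). Outside the comparison set, peaks above 300 bp made up 7.30% on chromosome 11 and 8.62% on chromosome 14, against 2.75% on chromosome 1. They made up 0.33%, 0.67% and 1.88% on chromosomes 4, 5 and 6. Peaks narrower than 167 bp made up 21.7% on chromosome 11 and 23.5% on chromosome 14, against 25.5% on chromosome 1. Their share was higher on chromosomes 4, 5 and 6.

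**Figure D3:**
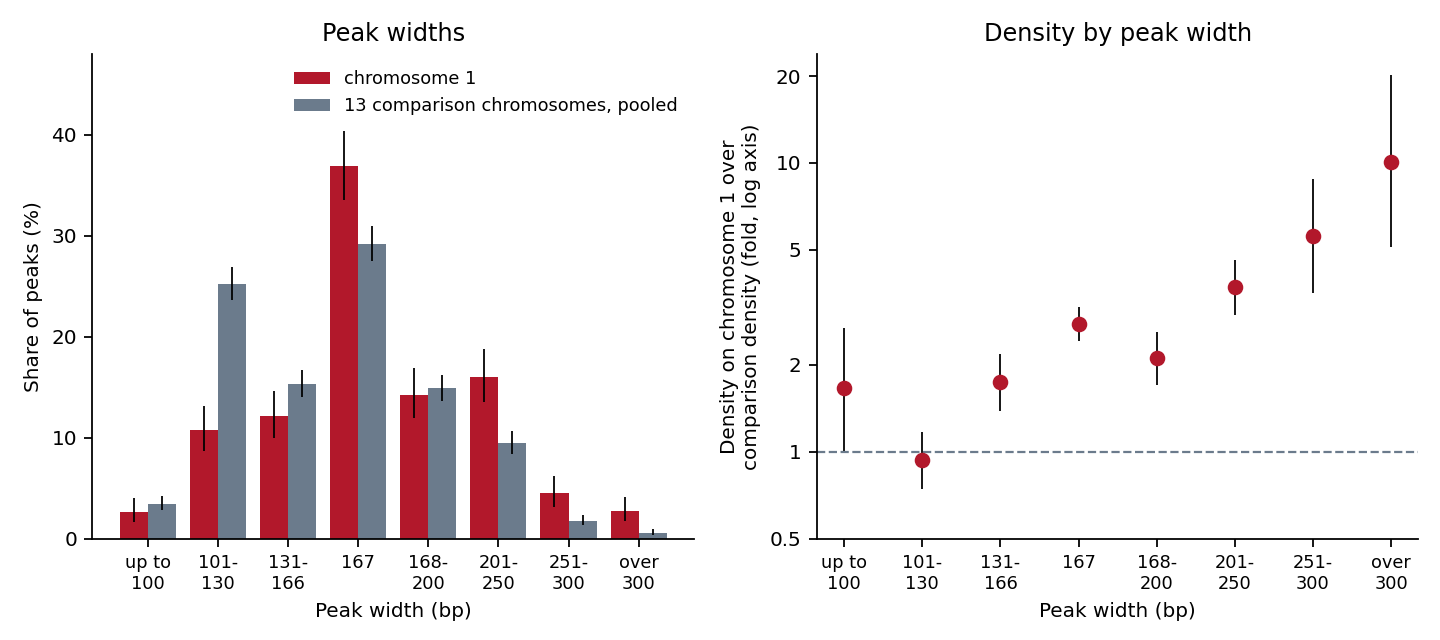
Left: share of peaks (%) in 8 classes of peak width for chromosome 1 and the 13 comparison chromosomes pooled, with exact binomial 95% intervals. Right: peaks per Mb of span on chromosome 1 divided by the pooled comparison value for each class, on a log axis, with exact 95% intervals of the ratio; the value is 0.94 at 101 to 130 bp and 10.1 above 300 bp.

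The 5 widest peaks of chromosome 1 were spread along it. The widest was chr1:36640124-36640617, at 494 bp. The next were chr1:63015021-63015396 and chr1:74942216-74942591 at 376 bp each, chr1:154626387-154626761 at 375 bp and chr1:167224410-167224782 at 373 bp. Of these 5, 3 lay before the boundary and 2 after it. The narrowest peaks were chr1:85322386-85322447 at 62 bp, chr1:129602049-129602124 at 76 bp and chr1:178288942-178289019 at 78 bp. The narrowest of them stood at the edge of the longest stretch without a peak, described below.

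Across the boundary no difference in peak width was detectable. The mean was 177 ± 48.9 bp before and 179 ± 47.3 bp after (SD over peaks). Wider peaks made up 37.0% (33.0 to 41.1) before and 38.9% (32.6 to 45.5) after, a difference of 1.90 percentage points (-5.36 to 9.36). The share of peaks of at most 130 bp was 14.2% before and 11.5% after, a difference of -2.62 points (-7.30 to 2.79). The intervals leave room for a difference of several points in either direction.

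Wider peaks varied along the chromosome in another way. Over the 18 whole 10 Mb windows their share had a median of 40.2% and reached 51.2% at 90 to 100 Mb. It was lowest at 140 to 150 Mb, with 2 of 24 peaks (8.33%, 1.03 to 27.0), and at 110 to 120 Mb, with 2 of 17 (11.8%, 1.46 to 36.4). These were also the emptiest windows of the chromosome. Together they held 4 wider peaks of 41 (9.76%, 2.72 to 23.1), against 296 of 758 (39.1%, 35.6 to 42.6) in the rest of chromosome 1. The window from 140 to 150 Mb also had the highest share of peaks of at most 130 bp, 11 of 24 (45.8%), against 13.4% over the whole of chromosome 1. The remaining 16 whole windows all held at least 27.1% wider peaks.

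Across the 18 windows the count and the share of wider peaks had r = 0.57 (Spearman rho 0.35), given as a description of windows from 1 library that share its depth and peak calling. Without the windows at 110 to 120 and 140 to 150 Mb, r was 0.15 (rho 0.08), so the relation rested on them. Both windows were singled out after their values had been seen.

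Width was also set beside the local crowding of each peak, as the number of peaks in its 1 Mb bin. On chromosome 1, 39 of 167 peaks (23.4%, 17.2 to 30.5) in 1 Mb bins with 1 to 3 peaks were wider than 167 bp. The share was 39.3% (33.9 to 44.8) of 326 peaks in bins with 4 to 6 and 43.5% (37.8 to 49.2) of 306 in bins with 7 or more. On the comparison chromosomes it moved less, from 24.5% (22.2 to 26.9) to 28.7% (26.1 to 31.5) and 28.8% (24.5 to 33.4).

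At the same local crowding, wider peaks were more frequent on chromosome 1 than on the others in the fuller bins, and no difference was detectable in the thinnest. The difference in wider peaks was -1.10 percentage points (-7.35 to 6.22) in bins with 1 to 3 peaks, 10.5 (4.68 to 16.5) in bins with 4 to 6 and 14.7 (7.59 to 21.6) in bins with 7 or more. For peaks of at most 130 bp the share on chromosome 1 was lower in each class, with differences of -10.5 (-16.6 to -3.25), -14.0 (-18.1 to -9.30) and -14.8 points (-20.1 to -9.23) in the same order. In bins with 7 or more peaks these narrow peaks were 10.5% on chromosome 1 and 25.2% elsewhere. The classes treat the peaks of a bin as independent, and such intervals can be too narrow.

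**Figure D4:**
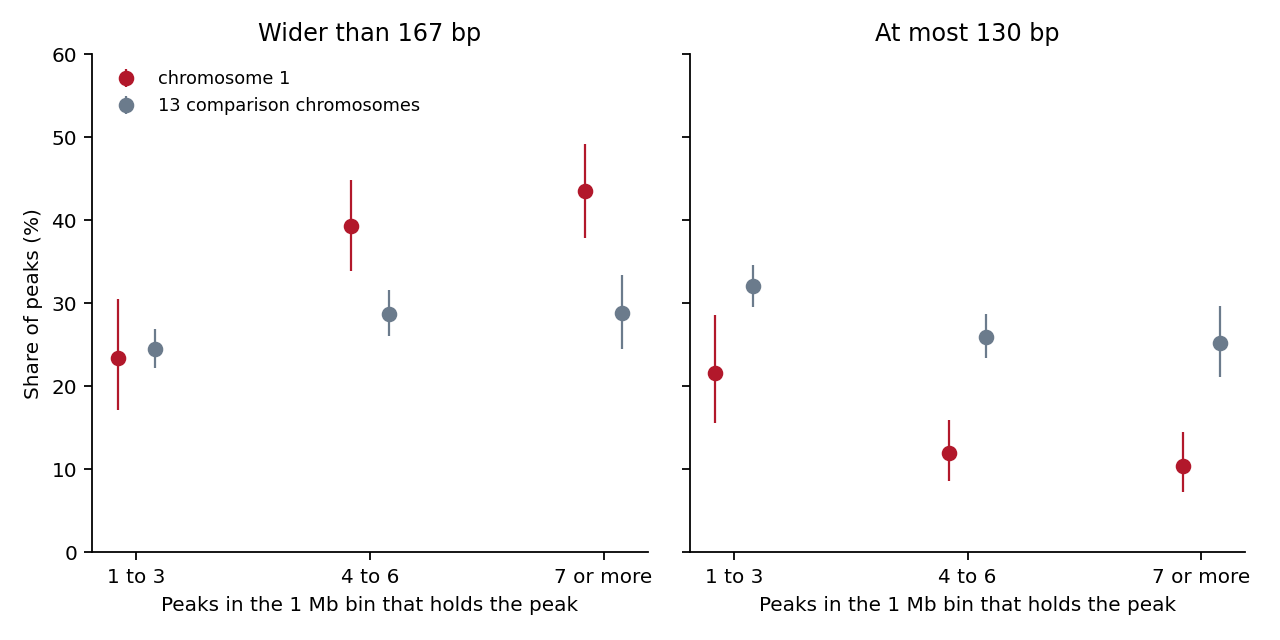
Share of peaks (%) wider than 167 bp (left) and of at most 130 bp (right), by the number of peaks in the 1 Mb bin that holds the peak, for chromosome 1 and the 13 comparison chromosomes pooled; bars are exact binomial 95% intervals. In bins with 1 to 3 peaks the wider share was 23.4% on chromosome 1 and 24.5% elsewhere, and in bins with 7 or more it was 43.5% and 28.8%.

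The median distance between peaks was shorter on chromosome 1 than on any comparison chromosome. The distance between neighbouring peak centres had a median of 148.2 kb and quartiles of 64.2 and 303 kb. The comparison medians ran from 170 kb on chromosome 19 to 372 kb on chromosome 13. Outside this set the median was shorter than on chromosome 1 on chromosome 11, at 126 kb, and chromosome 14, at 128 kb. The lower quartile was below that of chromosome 1 on chromosomes 17 and 19, at 56.4 and 62.9 kb. Within chromosome 1 the median was 159 kb before the boundary and 120 kb after it.

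By its SD, spacing was also more regular in proportion to its mean. The SD of the gaps was 1.17 times their mean of 242 kb, against 1.30 on chromosome 13 to 1.81 on chromosome 2. The median gap was 0.61 of the mean on chromosome 1 and 0.39 to 0.60 of it on the 13 others. Gaps of at most 0.1 of the chromosome's own mean made up 9.90% on chromosome 1 and 13.2% to 21.7% on the 13 others. Chromosome 11, outside the comparison set, was near chromosome 1 in each of these measures. Its SD was 1.23 times the mean gap, its median gap 0.62 of the mean, and 10.5% of its gaps were that short. On chromosome 1 the SD was 1.17 times the mean before the boundary and 1.07 times after it.

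Long gaps were few in absolute length. The longest stretch without a peak centre on chromosome 1 measured 2.15 Mb, between chr1:85322386-85322447 and chr1:87476861-87476939. The next 4 measured 2.07 Mb, after chr1:47919787-47919902, 1.89 Mb, after chr1:108940123-108940238, 1.65 Mb, after chr1:150255526-150255680, and 1.51 Mb, after chr1:31509431-31509597. All 5 lay before the boundary, as did 77.2% of the span. Each longest gap on the comparison chromosomes was longer, from 3.26 Mb on chromosome 15 to 8.18 Mb on chromosome 2. In proportion to the mean gap chromosome 1 lay inside the range of the 13. Its longest gap was 8.89 times the mean, with 3 of the 13 lower, and 7.02% of its gaps exceeded 3 times the mean, with 2 of the 13 lower. Of the 21 gaps over 1 Mb on chromosome 1, 19 lay before the boundary and 2 after it. Gaps of any length numbered 564 before it and 233 after it.

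Peaks at the edges of these long gaps were more often narrow. Of the 41 peaks that flanked a gap over 1 Mb, 13 (31.7%, 18.1 to 48.1) were at most 130 bp wide, against 13.4% of all chromosome 1 peaks, and 11 (26.8%, 14.2 to 42.9) were wider than 167 bp, with a mean width of 157 ± 42.5 bp (SD over peaks). None of the 58 chromosome 1 peaks wider than 250 bp was among them, but with 41 of 799 peaks in this set few would be by number alone. By distance to the nearest peak, wider peaks made up 24.2% (14.2 to 36.7) of the 62 peaks with no neighbour within 300 kb, 42.6% (36.0 to 49.4) of the 223 with one at 10 to 50 kb and 36.2% (24.0 to 49.9) of the 58 with one within 10 kb.

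**Figure D5:**
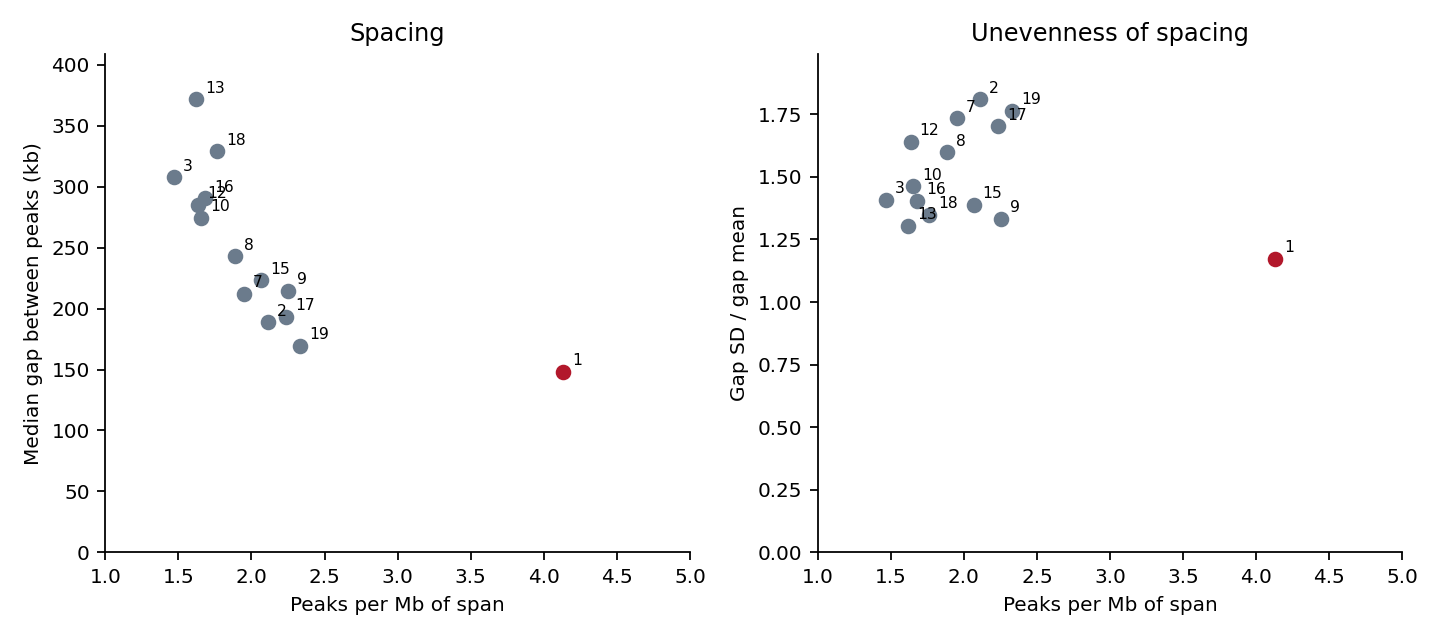
Each point is 1 chromosome, labelled with its number, with chromosome 1 in red and the 13 comparison chromosomes in grey; the horizontal axis is peaks per Mb of span. Left: median distance between neighbouring peak centres (kb), 148.2 on chromosome 1. Right: SD of these distances divided by their mean, 1.17 on chromosome 1 and at least 1.30 on the 13 comparison chromosomes.

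Against the pooled comparison chromosomes, no excess of close pairs was detectable within 10 kb, while one was seen within 50 kb. A share at a fixed distance also depends on peak density, which was higher on chromosome 1. These shares therefore do not measure clustering apart from density. Relative to each chromosome's own mean gap, very short gaps were less frequent on chromosome 1 than on each of the 13, as given above. On chromosome 1, 58 peaks had another within 10 kb (7.26%, 5.56 to 9.28), against 6.58% (5.69 to 7.56) on the comparison chromosomes, a difference of 0.68 points (-1.20 to 2.87). Of the 13, chromosome 16 had none among its 159 peaks and chromosome 17 had the highest share, 13.6%. Within 50 kb, 281 peaks of chromosome 1 (35.2%, 31.9 to 38.6) had a neighbour, against 28.3% elsewhere, a difference of 6.91 points (3.26 to 10.7). Chromosome 1 nevertheless lay inside the range of the 13, since the share was 37.4% on chromosome 17 and 37.0% on chromosome 19. Beyond the boundary the 10 kb share was 6.41% and before it 7.61%, a difference of -1.20 points (-4.72 to 3.14). The 50 kb share went the other way, from 32.9% before the boundary to 40.6% after it, a difference of 7.68 points (0.40 to 15.1). Peaks were also denser after the boundary, and the part of density in this difference was not tested.

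The 5 closest pairs were few enough to list. The peaks chr1:107939825-107940118 and chr1:107940120-107940272 were separated by 1 base. Between chr1:88360408-88360634 and chr1:88360880-88361046 there were 245 bases, and between chr1:65017164-65017330 and chr1:65017596-65017799 there were 265. The fourth pair, chr1:164597878-164598044 and chr1:164599320-164599486, had 1275 bases between its members, and the fifth, chr1:17863449-17863560 and chr1:17865448-17865614, had 1887.

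Runs of peaks were short. Chained by gaps of at most 10 kb, chromosome 1 had 26 groups of 2 peaks and 2 groups of 3, and none larger. The groups of 3 covered chr1:107933944-107940272, 6.33 kb that include the closest pair, with widths of 233 and 294 bp and a narrower last member, and chr1:166818792-166836263, 17.5 kb with widths of 167, 167 and 154 bp. With gaps of up to 50 kb the largest of its groups held 4 peaks, and there were 4 of them. The comparison chromosomes, with 2827 peaks against 799, had 15 groups of 4, 4 of 5 and 1 of 6 by the same limit. At 10 kb they had 84 groups of 2 and 6 of 3. The largest groups were too few for a comparison of run lengths.

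No relation between the widths of adjoining peaks was detectable. On chromosome 1, a peak that followed a wider one was itself wider in 114 of 300 cases (38.0%, 32.5 to 43.8), and one that followed a peak of 167 bp or less in 186 of 498 (37.3%, 33.1 to 41.8). The difference of 0.65 percentage points (-6.20 to 7.62) was near that of the comparison chromosomes, 0.88 points (-2.75 to 4.66).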

How the data were processed

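One Pwp1 ChIP library and 1 input library were sequenced from E14.1 mouse embryonic stem cells. The deposited peak list gives positions in bases and no other measurement. Per the submitters' processing notes, the tools were CASAVA 1.4, Bowtie 0.12.7 and HOMER 4.3 and the build was mm9. The sources used here do not say what each tool did, which peak threshold applied, whether the input was used or how deep the library was, so how they bear on peak width and number is unknown. Starts were read as counted from 0 and are printed counted from 1, and 0 pairs of peaks overlapped.

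Density is the number of peaks over the span from first to last peak, since no length of an mm9 chromosome was used. Bins and windows lie wholly inside that span and count peak centres. Gaps run between centres of neighbouring peaks. Intervals at 95% are exact Poisson for densities, exact conditional for ratios, Clopper-Pearson for shares and Newcombe for differences. They treat peaks and bins as independent. No hypothesis test was run. Python 3.11.15, numpy 2.4.6, pandas 2.3.3, scipy 1.17.1, statsmodels 0.14.6 and matplotlib 3.10.9 were used, and the functions were tested on simulated data.

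Chromosome, boundary, comparison set and the peaks to name (5 widest, 3 narrowest, 5 closest pairs, 5 longest gaps, fullest and emptiest windows and bins, largest groups, ends and boundary peaks) were chosen with earlier results of these data known. The width classes, the stretches of 30 Mb, the division by local crowding and the peaks flanking long gaps were added after the values had been seen. Alternatives merged peaks within 1 kb, left out peaks of 167 bp, changed the boundary, the width limit, the neighbour distance and the bin size, or took all other 18 autosomes for comparison.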

Additional observations from a re-analysis of the deposited data

How the results depend on the processing

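Of 22 recomputed values for 6 results, 17 stayed inside the 95% interval of the reported value, 5 moved outside it and 0 reversed a direction that this interval had fixed. The density of chromosome 1 over the comparison median, 2.19, was 2.58 from the medians of 10 Mb windows and 2.02 without peaks of 167 bp. The excess of wider peaks, 10.8 percentage points, was 6.38 against all other 18 autosomes, which include chromosomes 6, 11 and 14. The excess with a neighbour within 10 kb, 0.68 points, was 6.91 within 50 kb, which is another quantity. The variance of counts over their mean, 1.44, was 1.82 in bins of 2 Mb. The difference in wider peaks across the boundary, 1.90 points, was -0.98 (-8.47 to 6.86) with the boundary 5 Mb further distal and -1.49 (-7.58 to 5.15) for peaks over 200 bp, so its sign was not fixed. The neighbour excess within 10 kb was likewise -0.38 against all other autosomes and -0.88 without peaks of 167 bp. The cause of these changes was not tested. No paired analysis was possible because only the ChIP library, without replicates, had a peak list. No depth is recorded, so its bearing on these values was not tested.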
